A study of Homo sapiens with 6 samples.

Results

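CXCL8, CXCL1, CXCL2, CXCL3 and CCL2 are 5 chemokine genes that were followed through RNA sequencing of WM3248 melanoma cells after knockdown of PPARGC1A. They were found as the 5 rows, of 57688 gene rows in all, whose symbol equals one of these names. The 5 were chosen with the same knockdown against control values already known, which placed CXCL8 and CXCL1 among the largest rises, and the others were added as their relatives. The values of the 5 are therefore given as a description, with no test, and tests are given only for other genes of the pathway. WM3248 is an established human line, 1 line in all, grown from a primary melanoma that the labels class as VGP. In the siNC group (n = 3 libraries) the cells received a commercial negative control siRNA, and in the siPGC1a group (n = 3 libraries) they received an siRNA against PPARGC1A, which encodes the transcriptional coactivator PGC-1alpha. Both siRNAs were given at 30 nM with the same lipid reagent, so every library came from transfected cells, and there was no untreated group. RNA was taken 48 h after transfection from cells grown in medium with insulin, pituitary extract, epidermal growth factor and a little serum. No label tells if each library had its own culture, and the spreads and p-values below therefore measure only the variation between these libraries, which may be technical.

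Chemokines are small secreted proteins that attract leukocytes through G protein-coupled receptors. CXCL8, also called interleukin-8, and CXCL1, CXCL2 and CXCL3, the GRO chemokines, carry the glutamate-leucine-arginine (ELR) tripeptide before their first cysteines, bind CXCR2 and attract neutrophils, and CXCL8 also binds CXCR1. CCL2, also called MCP-1, belongs to the CC family, binds CCR2 and attracts monocytes. CXCL1 was first purified as a melanoma growth-stimulating activity, and melanoma cells are known to secrete CXCL8. Transcription of these genes is classically induced by interleukin-1 and tumour necrosis factor through NF-kappaB, with AP-1 and C/EBP factors contributing at CXCL8, and AU-rich elements in their 3' UTRs make the mRNAs short-lived.

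The promoter sequences were not used in choosing the genes, and those of the 4 CXC genes are shown here. RefSeq promoters (GRCh38.p14) were matched by symbol for 4 of the 5 genes, and CCL2 was not matched. The 150 bases just before each start site are printed 5' to 3' on the strand of the gene, for CXCL8 at chr4:73740419-73740568 on the plus strand, for CXCL1 at chr4:73869243-73869392 on the plus strand, for CXCL2 at chr4:74099196-74099345 on the minus strand and for CXCL3 at chr4:74038690-74038839 on the minus strand. Capitals mark a kappaB word (GGANTTTCC) in every sequence and, in CXCL8, also an AP-1 word (TGANTCA) upstream of it and a TATA word (TATAAA) downstream of it.
CXCL8: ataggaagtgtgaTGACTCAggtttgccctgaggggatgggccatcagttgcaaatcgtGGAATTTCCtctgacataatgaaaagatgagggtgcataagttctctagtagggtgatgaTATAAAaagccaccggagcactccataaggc
CXCL1: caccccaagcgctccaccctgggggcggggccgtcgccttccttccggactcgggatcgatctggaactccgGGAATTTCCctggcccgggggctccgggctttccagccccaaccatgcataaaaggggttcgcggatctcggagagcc
CXCL2: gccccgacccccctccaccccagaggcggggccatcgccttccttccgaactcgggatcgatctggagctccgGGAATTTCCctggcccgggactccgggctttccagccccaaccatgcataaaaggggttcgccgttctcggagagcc
CXCL3: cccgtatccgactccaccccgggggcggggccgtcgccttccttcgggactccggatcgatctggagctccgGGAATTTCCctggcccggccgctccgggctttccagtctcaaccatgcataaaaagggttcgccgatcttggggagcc

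Words were searched on both strands from 250 bases before to 50 bases after the start, and no 2 of the 3 words overlap in these windows. The kappaB word was present in 4 of the 4 promoters, at -91 to -83 in CXCL8, at -78 to -70 in CXCL1 and CXCL3 and at -77 to -69 in CXCL2, counted from the start site. The same word was held by 1.64% of the 35116 promoters in the table. The word was set with the 4 genes already named, and the GRO promoters resemble one another. These are therefore not 4 independent matches, and nothing is read from the count. Of the 34 promoters of 29 other chemokine ligand genes, 4 held it, those of CXCL5, CXCL6, CXCL10 and CXCL11. The wider kappaB consensus, which overlaps the kappaB word, was found in CXCL1, CXCL2 and CXCL3 but not in CXCL8, and in 11.27% of all promoters. The AP-1 word was found at -137 to -131 in CXCL8 alone among the 4 and in 7.71% of all promoters. The TATA word, at -31 to -26 in CXCL8, was not found in the windows of the other 3 and was found in 11.53% of all promoters. At about the same distance from the start, the other 3 read CATAAA, which differs from the TATA word in its first letter. Of the 34 promoters of other chemokine ligands, 7 held the AP-1 word and 16 the TATA word. A match describes these letters only, and binding of a factor was not measured.

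**Figure D1:**
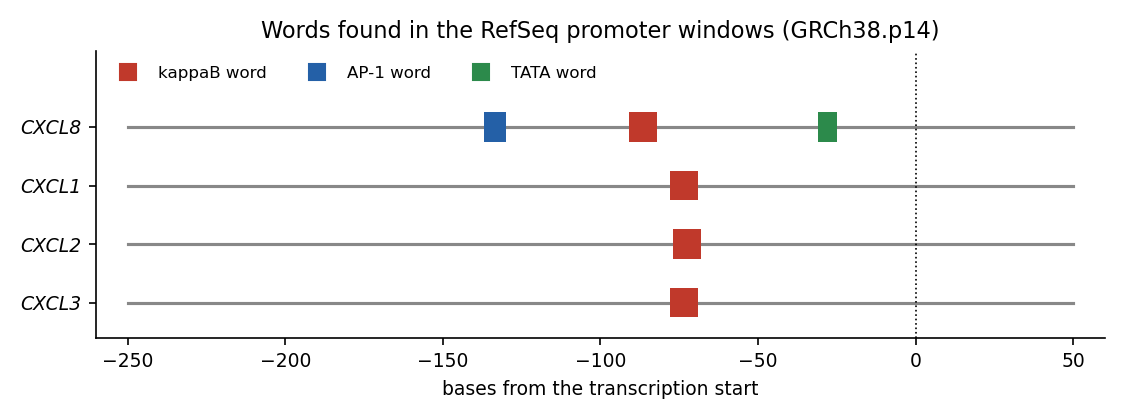
Position of the kappaB, AP-1 and TATA words in the RefSeq promoter windows of the 4 CXC chemokine genes, in bases from the transcription start (dotted line). The kappaB word lies between -91 and -69 in all 4, and only CXCL8 carries the AP-1 and TATA words.

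The GRO genes are close copies of one another. Over the 150 bases, compared position by position without gaps, the CXCL1 and CXCL3 promoters were 86.0% identical. CXCL1 and CXCL2 were 67.1% and CXCL2 and CXCL3 65.8% identical, both pairs at an offset of 1 base. That offset lines up the bases up to the kappaB word but not those after it. These 2 values therefore understate the likeness of CXCL2 to the others. By the same comparison CXCL8 was 27.3% to 29.3% identical to the GRO promoters. The transcripts are similar enough that some single reads of 50 bases cannot be assigned. Of all 50-base words in their annotated transcripts, 4.8% of those of CXCL1, 12.5% of those of CXCL2 and 6.0% of those of CXCL3 occur in another of the 3, and 0 do in CXCL8 and CCL2. The values of CXCL1, CXCL2 and CXCL3 are to that extent uncertain. None of the 5 genes overlaps an annotated gene on the opposite strand.

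The targeted gene checks the labels. PPARGC1A was at 0.932, 1.042 and 0.947 FPKM (fragments per exon length and sequencing depth, the deposited unit) in the siNC libraries and at 0.4, 0.354 and 0.413 FPKM in the siPGC1a libraries, a ratio of 0.4 (limma adjusted p = 0.000234). Depth, recovered from the steps of the FPKM values, was 25180000 to 26440000 reads per library. Genes with a mean of at least 1 FPKM were compared as log2(FPKM + 1), with PPARGC1A kept in whatever its level, and of these 12020 genes 25.6% were higher and 22.5% lower in siPGC1a at a limma adjusted p under 0.05. All 8 melanocyte markers were above 0 in every library, but at very different levels: group means were 802.0 (siNC) and 924.0 (siPGC1a) FPKM for S100B, 394.0 and 253.0 for DCT and 246.0 and 230.0 for SOX10, against 1.86 and 1.02 for MLANA, 1.44 and 1.13 for TYR and 1.08 and 0.907 for TYRP1. Of the 7 tested, S100B rose, MLANA, PMEL, DCT and MITF fell and 2 did not pass (limma), with a median log2 difference of -0.34.

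CXCL8 and CXCL1 were several times higher in the siPGC1a libraries, CXCL3 was about 2.04 times as high at a low level, CXCL2 was near 0, and CCL2 did not move beyond its spread. CXCL8 and CXCL1, of the 5, passed the filter of a mean of at least 1 FPKM. The siPGC1a and siNC values did not overlap for 3 of the 5 genes, all 3 higher in siPGC1a. Such a separation was present for 29.8% of the 12020 genes tested and for 3.8% of the 18962 genes above 0 but under the filter. As the 5 were chosen on this contrast, nothing is read from that count. In a bulk sample, more cells making a chemokine and more mRNA per cell cannot be told apart.

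**Figure D2:**
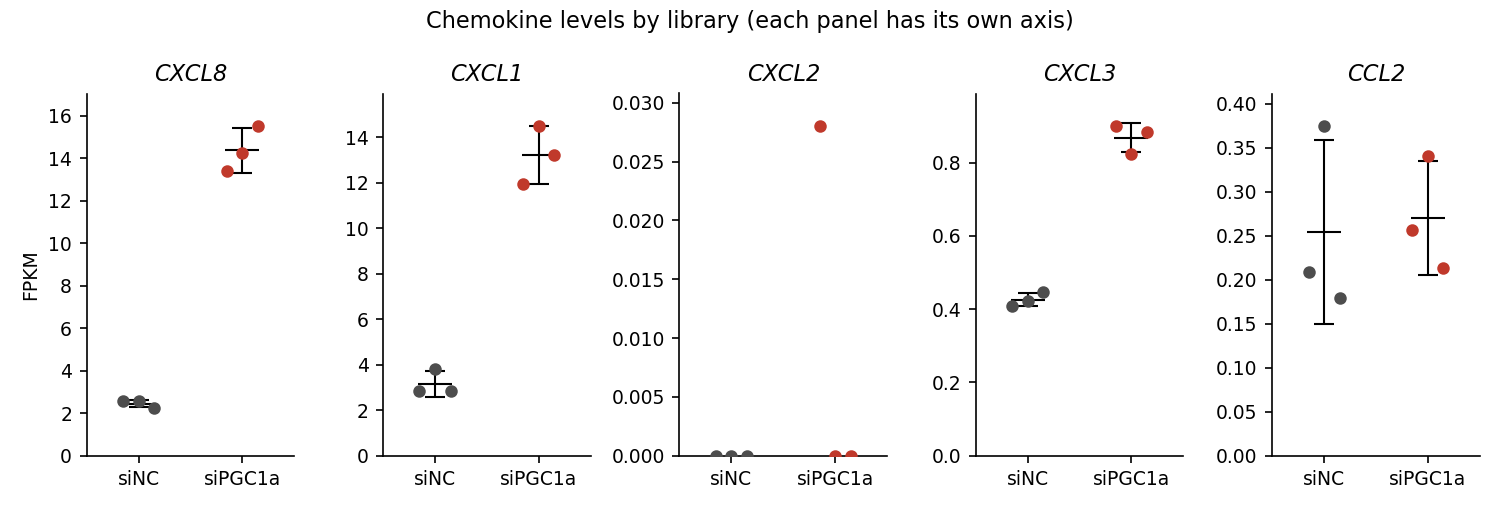
FPKM of the 5 chemokines in each library, with 1 point per library, a bar at the mean and whiskers of ± 1 SD (n = 3 per group, not drawn for CXCL2), each panel on its own linear axis from 0. The groups are apart for CXCL8, CXCL1 and CXCL3, overlap for CCL2, and CXCL2 is above 0 in 1 library.

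CXCL8 was measured at 2.551, 2.565 and 2.245 FPKM in the siNC libraries and at 13.403, 14.262 and 15.504 FPKM in the siPGC1a libraries. Each siPGC1a library was above every siNC library, and the lowest siPGC1a value was far from the highest siNC value. The group means were 2.45 ± 0.181 and 14.4 ± 1.06 FPKM (SD, n = 3 each), a ratio of 5.86 and a difference of 2.15 on the log2(FPKM + 1) scale. These values correspond to 151, 147 and 127 reads in siNC and 767, 804 and 904 reads in siPGC1a. The SD between the siNC libraries, 12.9 reads, was close to what counting alone gives at that mean, 11.9 reads, and the SD between the siPGC1a libraries, 70.9 reads, was above the counting value of 28.7 reads. Among the 12020 genes tested, CXCL8 had the largest log2 difference (rank 1) and the third largest FPKM ratio (rank 3). In siNC it lay above 18.9% of the genes tested, and in siPGC1a above 71.7%.

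CXCL1 was measured at 2.831, 3.829 and 2.84 FPKM in siNC and at 11.955, 14.465 and 13.215 FPKM in siPGC1a. In both groups the second library was the highest, and the groups stayed apart. The means were 3.17 ± 0.574 and 13.2 ± 1.26 FPKM (SD, n = 3 each), a ratio of 4.17 and a log2(FPKM + 1) difference of 1.78. Reads numbered 97, 127 and 93 in siNC and 396, 472 and 446 in siPGC1a. The SD between libraries, 18.6 reads in siNC and 38.6 in siPGC1a, was above what counting alone gives, 10.3 and 20.9 reads. CXCL1 ranked 4 by log2 difference and 7 by FPKM ratio among the genes tested. Its level passed that of 25.7% of these genes in siNC and 69.4% in siPGC1a.

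CXCL3, whose protein acts on the same receptor as CXCL1, stood at a level too low for the test. It was measured at 0.409, 0.423 and 0.446 FPKM in siNC and at 0.899, 0.823 and 0.883 FPKM in siPGC1a. The siNC values lay close together, as did the siPGC1a values, and the groups did not overlap. The means were 0.426 ± 0.0187 and 0.868 ± 0.0401 FPKM (SD, n = 3 each), a log2(FPKM + 1) difference of 0.39. Only 24, 24 and 25 reads stood behind the siNC values and 51, 46 and 51 behind the siPGC1a values. The SD between libraries, 0.577 reads in siNC and 2.89 in siPGC1a, was below what counting alone gives, 4.93 and 7.02 reads, so the closeness of these values understates their error.

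CXCL2 was at 0 FPKM in all siNC libraries and in 2 of the 3 siPGC1a libraries, and at 0.028 FPKM in the first siPGC1a library. That value is 1 read, the only read assigned to CXCL2 in the 6 libraries. A count of 0 allows up to 3 reads, which for CXCL2 is 0.0756 to 0.0794 FPKM depending on the library. No fold was therefore computed, and a change below that level was not detectable at this depth. The printed CXCL2 promoter holds the kappaB word as the others do, and of the 3 GRO genes CXCL2 shares the largest part of its transcript words with the others.

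CCL2, the monocyte chemokine, was measured at 0.209, 0.374 and 0.179 FPKM in siNC and at 0.256, 0.34 and 0.213 FPKM in siPGC1a. The highest and the lowest of the 6 values were both siNC libraries, so the siPGC1a values lay within the siNC range. The means were 0.254 ± 0.105 and 0.27 ± 0.0646 FPKM (SD, n = 3 each), with a log2(FPKM + 1) difference of 0.02. With 39 reads over the siNC and 41 over the siPGC1a libraries, the read ratio was 1.06, with a 95% interval of 0.666 to 1.68 from counting. The SD between the siNC libraries was 5.29 reads around a mean of 13.0, against 3.61 from counting alone, so that interval is too narrow. A modest change in either direction would not be seen in values so spread.

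The order of the 5 levels differed between the groups at its top. FPKM is per length, so levels can be set beside one another. In siNC, CXCL1 (2.831 to 3.829 FPKM) lay above CXCL8 (2.245 to 2.565 FPKM) without overlap, followed by CXCL3, CCL2 and CXCL2. In siPGC1a, CXCL8 (13.403 to 15.504 FPKM) had a higher mean than CXCL1 (11.955 to 14.465 FPKM), but the neighbours overlapped, and the other 3 kept their places. CXCL3 and CCL2 did not overlap in either group on this scale. The ratio of CXCL8 to CXCL1 within a library was 0.901, 0.67 and 0.79 in siNC and 1.12, 0.986 and 1.17 in siPGC1a, so every siPGC1a library had the higher ratio. The ratio of CXCL3 to CXCL1 went the other way, at 0.144, 0.11 and 0.157 in siNC and 0.0752, 0.0569 and 0.0668 in siPGC1a.

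The deposited FPKM divides by the length of all annotated exons, which for each of the 5 genes is above that of the main mRNA. Rescaled to mRNA length, a choice made after the values were seen, CXCL8 stood at 3.22 ± 0.237 in siNC and 18.9 ± 1.39 in siPGC1a, and CXCL1 at 3.74 ± 0.678 and 15.6 ± 1.48 (FPKM per mRNA length, SD, n = 3 each). On that scale the siNC levels of the 2 genes overlapped, at 2.95 to 3.37 for CXCL8 and 3.34 to 4.52 for CXCL1, and the siPGC1a levels did not, at 17.6 to 20.4 and 14.1 to 17.1. In which group these 2 genes are set apart thus depends on the length used. By group mean their order changed on both scales, but not in every library. In FPKM the second siPGC1a library had CXCL1 above CXCL8 (14.465 against 14.262). Per mRNA length the first siNC library had CXCL8 above CXCL1 (3.35 against 3.34). The higher ratio of CXCL8 to CXCL1 in siPGC1a does not depend on the length, which scales that ratio alike in every library. CXCL3 stood at 0.879 ± 0.0386 in siNC and 1.79 ± 0.0827 in siPGC1a on the same scale, and CCL2 at 0.681 ± 0.281 and 0.723 ± 0.173. These neighbours overlapped in siNC, at 0.844 to 0.921 for CXCL3 and 0.48 to 1.0 for CCL2, and did not in siPGC1a, at 1.7 to 1.86 and 0.571 to 0.911.

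Together the 5 genes summed to 6.0, 7.19 and 5.71 FPKM in siNC and 26.5, 29.9 and 29.8 FPKM in siPGC1a. CXCL8 made up 35.7% to 42.5% of that sum in siNC and 47.7% to 52.0% in siPGC1a, and CXCL1 47.2% to 53.2% and 44.3% to 48.4%. The share of CXCL3 was 5.88% to 7.81% in siNC and 2.75% to 3.39% in siPGC1a, since CXCL3 rose by a smaller factor than CXCL8 and CXCL1. The share of CCL2 was 3.13% to 5.2% and 0.714% to 1.14%. Thus most of the sum in every library was CXCL8 and CXCL1. These shares are in FPKM and depend on the length used. Per mRNA length the levels of CXCL3 and CCL2 are multiplied by 2.06 and 2.68, those of CXCL8 and CXCL1 by 1.31 and 1.18.

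Set among all 48 chemokine ligand genes of the table, the 5 went from a minority to a majority of the summed level. All ligands summed to 23.9, 24.6 and 21.4 FPKM in siNC and 45.7, 49.7 and 50.1 FPKM in siPGC1a, and the 5 genes held 25.1%, 29.2% and 26.7% of it in siNC and 58.1%, 60.1% and 59.5% in siPGC1a. These shares, and the order that follows, are in FPKM alone and were not computed per mRNA length. By group mean the siNC order was CXCL16, CXCL1, CCL28, CXCL8, CX3CL1, CCL20, CXCL10 and CXCL3. In siPGC1a it was CXCL8, CXCL1, CCL20, CXCL16, CXCL10, CCL28, CX3CL1 and CXCL3. In siNC, CXCL1 overlapped CCL28 in its values, and in siPGC1a every value of CXCL8 and CXCL1 lay above every value of the other 46 ligands.

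**Figure D3:**
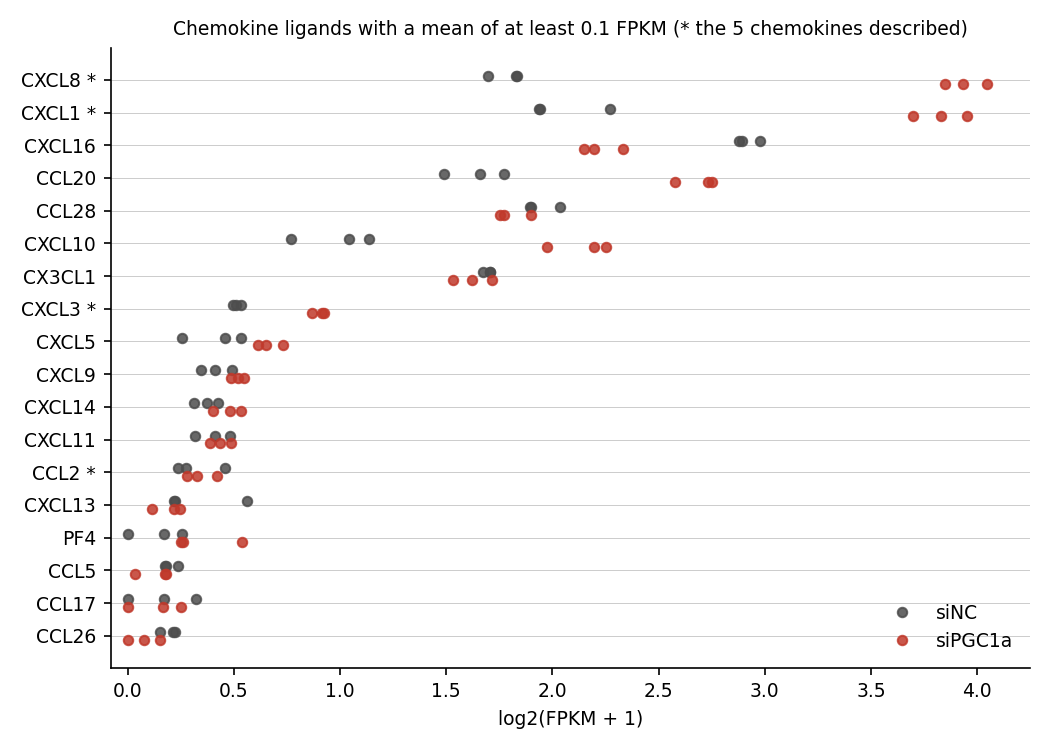
Chemokine ligands with a mean of at least 0.1 FPKM, ordered by their mean, as log2(FPKM + 1) with 1 point per library (3 siNC, 3 siPGC1a). CXCL8 and CXCL1 lie right of all other ligands in siPGC1a, and CXCL16 leads in siNC.

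Of the 43 other ligands, 5 passed the filter, of which 2 rose, 1 fell and 2 did not pass the test, with a median log2 difference of -0.07 beside 0.01 over all genes tested. Of all genes tested, 25.6% rose and 22.5% fell. CXCL10, an interferon-induced ligand of CXCR3, was at 1.062, 1.197 and 0.707 FPKM in siNC and 2.93, 3.583 and 3.758 FPKM in siPGC1a. That is a log2(FPKM + 1) rise of 1.16 (SE 0.103, limma adjusted p = 2.63e-05). Its siNC mean was 0.989 FPKM, so CXCL10 passed the filter of 1 FPKM only through its siPGC1a values. CCL20, a ligand of CCR6, was at 2.42, 2.157 and 1.812 FPKM in siNC and 4.958, 5.656 and 5.734 FPKM in siPGC1a. Its log2(FPKM + 1) rise was 1.05 (SE 0.0785, limma adjusted p = 1.06e-05). CXCL16, a transmembrane chemokine, went the other way, from 6.55 ± 0.275 to 3.69 ± 0.311 FPKM (SD, n = 3 each; limma adjusted p = 1.97e-05). CCL28 was at 2.85 ± 0.216 and 2.51 ± 0.198 FPKM (limma adjusted p = 0.105) and CX3CL1, the membrane-bound fractalkine, at 2.24 ± 0.0453 and 2.09 ± 0.196 FPKM (limma adjusted p = 0.366). Both of the ligands that rose have smaller ratios, 3.46 for CXCL10 and 2.56 for CCL20, than CXCL8 and CXCL1.

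Under the filter were 38 other ligands, 21 of them at 0 in all 6 libraries and none above 0.662 FPKM. Among all genes above 0 but under the filter, 3.8% were apart and higher, and the share apart and lower was not computed. Of the 38, 17 were above 0 in any library, the set to put beside the 3.8%. In 2 of these 17 the groups were apart with siPGC1a higher, CXCL5 and CCL3. CCL3 was at 0 in siNC and at most 0.106 FPKM in siPGC1a. In 2 the groups were apart with siPGC1a lower, CXCL17 and CCL26. These were at group means of 0.0977 and 0.146 FPKM in siNC and 0.011 and 0.055 FPKM in siPGC1a. With no share beside them, nothing is read from the 2 lower ones. CXCL5, an ELR chemokine that also binds CXCR2, was named after its values were seen, and lay at 0.373, 0.449 and 0.195 FPKM in siNC and 0.53, 0.571 and 0.662 FPKM in siPGC1a, with no overlap. CXCL6, another ELR chemokine with the kappaB word and likewise named after its values were seen, was at 0 in all libraries but the second siPGC1a library, at 0.039 FPKM. PPBP and CCL7, relatives of the GRO chemokines and of CCL2, were among the ligands at 0.

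Transcripts of the receptors for the 5 chemokines, named for that role, were at or near 0. CXCR1, the second receptor for CXCL8, and CCR2, the receptor for CCL2, were at 0 in all libraries, and CXCR2 did not exceed 0.025 FPKM in any. Of the 23 receptors, 9 were at 0 throughout and only CCR10, a receptor for CCL27 and CCL28, passed the filter. It fell from 2.59 ± 0.316 to 2.06 ± 0.149 FPKM (SD, n = 3 each; limma adjusted p = 0.0279). That call was lost without the filter (limma adjusted p = 0.122), with quantile scaling (0.0774), without siNC replicate 3 (0.112) and without siPGC1a replicate 1 (0.0959).

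Among the cytokines, receptors and adaptors that induce these chemokines, 16 of 26 passed the filter, of which 3 rose, 5 fell and 8 did not pass, with a median of -0.07. Shares over all genes tested were 25.6% higher and 22.5% lower. IL1A, interleukin-1 alpha, rose from 4.87 ± 0.165 to 21.8 ± 1.56 FPKM (SD, n = 3 each; limma adjusted p = 6.87e-08). IL1RAP, the accessory chain of the interleukin-1 receptor, rose from 7.94 ± 0.246 to 12.9 ± 0.746 FPKM (limma adjusted p = 1.46e-05), and IRAK1, a kinase of the same pathway, from 69.0 ± 0.918 to 90.8 ± 1.83 FPKM (limma adjusted p = 2.86e-05). The signalling chain did not move one way. IRAK4, the kinase that acts before IRAK1, fell from 4.45 ± 0.0953 to 2.29 ± 0.282 FPKM (limma adjusted p = 2.91e-05), and MYD88, the adaptor of the receptor, RIPK1, TAB2 and the tumour necrosis factor receptor TNFRSF1B also fell, to ratios of 0.823 to 0.851. The main receptor chains, which like TNFRSF1B were named after their values were seen, were IL1R1 at 2.81 and 2.64 FPKM (limma adjusted p = 0.32) and TNFRSF1A at 28.7 and 28.4 FPKM (limma adjusted p = 0.78). Below the filter, and named after their values were seen, IL1B was at 0.501, 0.391 and 0.55 FPKM in siNC and 0.885, 0.783 and 0.831 FPKM in siPGC1a, and TNF at 0.248, 0.279 and 0.212 FPKM and 0.583, 0.805 and 1.007 FPKM, each higher without overlap. Of the 10 genes of this list under the filter, 1 was at 0 in every library, 2 were apart and higher and 3 apart and lower. The 3 were the Toll-like receptor genes TLR1 (0.802 to 0.493 FPKM in group means), TLR3 (0.702 to 0.303 FPKM) and TLR6 (0.886 to 0.7 FPKM). They are given as values only. Among all genes above 0 but under the filter, 3.8% were apart and higher, and the share apart and lower was not computed.

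Of 16 genes for NF-kappaB subunits, kinases and inhibitors, 15 passed the filter, 10 rose, 1 fell and 4 did not pass, with a median of 0.20. Over all genes tested 25.6% rose and 22.5% fell, and this list was written with earlier results of these data known. NFKB2 rose from 10.5 ± 0.395 to 17.7 ± 1.13 FPKM (SD, n = 3 each; limma adjusted p = 1.06e-05) and NFKB1 from 22.2 ± 0.093 to 30.0 ± 0.579 FPKM (limma adjusted p = 2.56e-05). Both encode NF-kappaB subunits. NFKBIA, the IkappaB-alpha inhibitor, rose from 24.5 ± 1.25 to 35.1 ± 1.72 FPKM (limma adjusted p = 5.49e-05). NFKBIZ, a nuclear IkappaB, rose from 2.05 ± 0.277 to 3.98 ± 0.224 FPKM (limma adjusted p = 5.4e-05). RELA, the main activating subunit, was at 12.6 ± 0.776 and 13.5 ± 0.306 FPKM (limma adjusted p = 0.119). BCL3, another nuclear IkappaB, fell from 10.8 ± 0.445 to 8.91 ± 0.979 FPKM (limma adjusted p = 0.0139), a call lost without the filter (limma adjusted p = 0.0836).

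AP-1 and C/EBP factors, of which 11 of 13 passed the filter, gave 8 higher, 2 lower and 1 not past, with a median of 0.29. Beside these, 25.6% of all genes tested were higher and 22.5% lower. FOSL1, a Fos-family subunit of AP-1, rose from 25.2 ± 1.2 to 54.5 ± 2.23 FPKM (SD, n = 3 each; limma adjusted p = 5.91e-07), and CEBPB, a C/EBP factor that acts at the CXCL8 promoter, from 11.0 ± 0.221 to 18.7 ± 1.25 FPKM (limma adjusted p = 8.78e-06). JUNB and JUND, partners of Fos proteins, rose at ratios of 1.39 and 1.4 (limma adjusted p = 0.000159 and 0.000484). JUN itself fell from 15.2 ± 0.855 to 10.6 ± 0.464 FPKM (limma adjusted p = 8.86e-05), and FOSL2 from 4.28 ± 0.384 to 2.69 ± 0.011 FPKM (limma adjusted p = 0.000128).

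The 12 regulators of AU-rich mRNAs gave 8 higher, 1 lower and 3 not past, with a median of 0.18. All genes tested gave 25.6% higher and 22.5% lower. ZFP36, or tristetraprolin, which speeds the decay of chemokine mRNAs, rose from 7.57 ± 0.755 to 11.6 ± 0.914 FPKM (SD, n = 3 each; limma adjusted p = 0.00025), and ZFP36L2, its relative, from 9.83 ± 0.228 to 14.4 ± 0.265 FPKM (limma adjusted p = 1.52e-05). KHSRP, which also promotes decay, rose from 68.6 ± 1.59 to 89.9 ± 4.27 FPKM (limma adjusted p = 0.000105), and ELAVL1, or HuR, which stabilises such mRNAs, from 15.9 ± 0.441 to 18.5 ± 0.131 FPKM (limma adjusted p = 0.00248). Genes known for opposite actions on these mRNAs were thus among those that rose. MAPK14, the p38 kinase that restrains ZFP36, fell from 19.9 ± 0.565 to 17.9 ± 0.43 FPKM (limma adjusted p = 0.016), a call lost without siNC replicate 2 (0.0653) and without siPGC1a replicate 2 (0.0513).

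Over the 6 lists, 31 of the 60 tested genes rose and 11 fell, with a median log2 difference of 0.13, beside 3075 and 2707 of 12020 and a median of 0.01 over all genes tested. The lists were written with earlier results of these data known.

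The 3' UTRs of the CXC members hold ATTTA, the core of AU-rich elements, at a high density per length. CXCL8 has 9 in 1252 bases (7.19 per kb), CXCL1 has 5 in 706 (7.08 per kb), CXCL2 has 10 in 721 (13.9 per kb), CXCL3 has 7 in 673 (10.4 per kb) and CCL2 has 1 in 376 (2.66 per kb), by the GENCODE v29 annotation. The median over 10586 tested genes with a 3' UTR was 1.6 per kb. At least as dense as CXCL8 were 3.42% of these genes, as CXCL1 3.54%, as CXCL2 0.557% and as CXCL3 1.16%, against 32.6% for CCL2. Decay of these mRNAs was not measured, and a part of ATTTA words in the differences between the groups was not tested. By number of copies rather than density, 14.2% of these genes hold at least as many as CXCL8, 28.4% as many as CXCL1, 12.0% as many as CXCL2 and 19.7% as many as CXCL3. The 3' UTRs were also read for ACACCT and GTCTTC, 6-base words searched because earlier results of these data had singled them out. GTCTTC occurs once each in the 3' UTRs of CXCL1 and CXCL2 and in 0 of the other 3. ACACCT is in the 3' UTR of 0 of the 5. Over all genes tested with a 3' UTR, 43.2% of those that fell, 19.8% of those that rose and 27.6% of those not past held it. Among the pathway genes, 3 of the 31 that rose, 4 of the 11 that fell (FOSL2, IRAK4, MYD88 and TAB2) and 5 of the 18 not past held it. As the word was singled out in these same data, these shares are a description only. They were not adjusted for 3' UTR length.

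**Figure D4:**
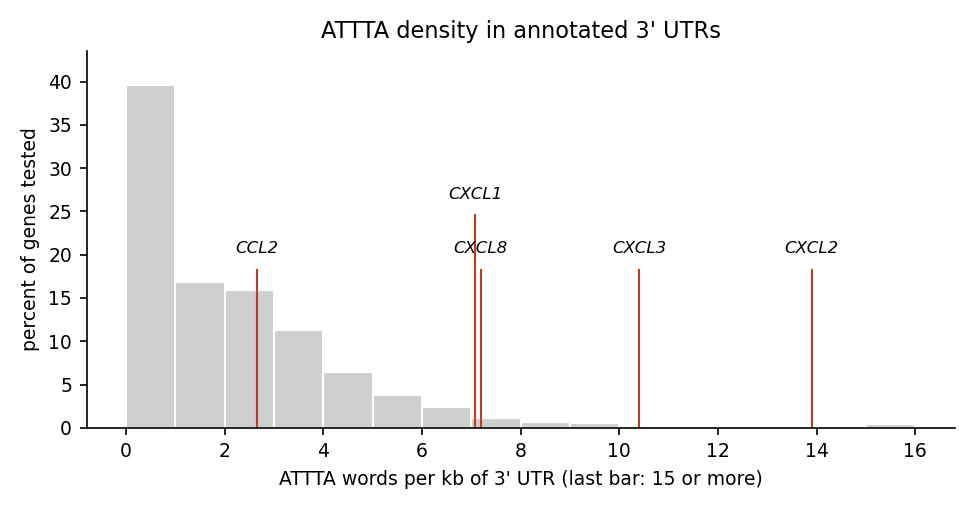
Copies of ATTTA per kb of annotated 3' UTR, as the percent of 10586 tested genes in each bin of 1 per kb (grey bars), with the 5 chemokines marked by red lines. CCL2, at 2.66 per kb, lies in the bulk of genes and the 4 CXC genes lie in the upper tail, at 7.08 to 13.9 per kb.

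The genes whose 6 values ran closest to those of CXCL8 and CXCL1 were other cytokines and a transcription factor. Likeness was the root mean square distance, over the 6 libraries, between log2(FPKM + 1) values each taken relative to the gene's own siNC mean. For CXCL8 the 3 nearest of the 12020 genes were IL1A (distance 0.16), IL11, a cytokine of the IL6 family (0.27), and CXCL1 (0.29). For CXCL1 they were MAFF, a small Maf factor (0.11), IL11 (0.21) and IL1A (0.21). IL11 was at 0.989, 0.657 and 0.916 FPKM in siNC and 4.675, 5.532 and 6.252 FPKM in siPGC1a, and MAFF at 2.507, 3.001 and 2.447 FPKM and 10.118, 10.71 and 10.526 FPKM. IL11, with a siNC mean of 0.854 FPKM, passed the filter only through its siPGC1a values. The measure uses the same contrast that chose the 5 genes and is given as a description.

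Leukocytes, fibroblasts, keratinocytes and endothelial cells also make these chemokines. Of their 27 markers measured, 6 passed the filter, of which 0 rose, 5 fell and 1 did not pass (limma). Over all genes tested, 25.6% were higher and 22.5% lower. Among all genes above 0 but under the filter, 3.8% were apart and higher, and the share apart and lower was not computed. Of the 21 markers under the filter, 3 were at 0 in every library, 2 were apart and higher and 7 apart and lower. With no share beside them, nothing is read from the 7. The 2 higher ones were ITGAM, a myeloid integrin (0.506 to 0.776 FPKM), and KRT15 (0.136 to 0.234 FPKM). Among 11 leukocyte markers, PTPRC (CD45) and FCGR3B were at 0 in all 6 libraries. The list summed to 4.4 to 4.74 FPKM in siNC and 3.58 to 4.45 FPKM in siPGC1a. LYZ, the most abundant, fell from 1.73 to 0.914 FPKM (limma adjusted p = 0.000779), and passed the filter only through its siNC values. The 7 fibroblast markers summed to 17.3 to 18.2 FPKM in siNC and 11.4 to 12.9 FPKM in siPGC1a, and the 4 that passed the filter all fell, LUM, the most abundant, from 8.51 to 6.38 FPKM (limma adjusted p = 0.00269). The 5 keratinocyte markers, with KRT1 at 0, summed to 20.5 to 21.5 and 20.9 to 26.0 FPKM, mostly KRT10 (20.6 and 22.4 FPKM, limma adjusted p = 0.204). The 4 endothelial markers measured, led by TEK, summed to 1.08 to 1.2 and 0.818 to 0.908 FPKM. The part of other cell types in the chemokine values was not tested.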

How the data were processed

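Gene FPKM values of 6 libraries were used as the authors deposited them. Per the submitters' processing notes, STAR, Picard, featureCounts and DESeq2 were used with the hg19 build, and no source used here gives the strand setting of the counting. The table listed 57688 rows, 26707 of them at 0 in every library, and 0 columns were left unused. Depth came from the FPKM steps of miRNA genes with GENCODE v29 exon lengths (55001 symbols matched), and 91.5% to 92.0% of values of up to 20 reads were whole within 0.1 read. The read numbers are estimates from these steps. For CXCL8 the annotated length of 2274 bases gave no whole reads, and 2239 bases, found by searching within 5%, was used. Promoters came from RefSeq (GRCh38.p14) and were not tied to the FPKM values by coordinates.

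Genes averaging at least 1 FPKM, and PPARGC1A, were tested with limma 3.58.1 (R 4.3.3, limma-trend, two-sided) on log2(FPKM + 1), a scale that understates the change of low genes, and p-values were adjusted by Benjamini-Hochberg (threshold 0.05). The procedure was tested on simulated data. The members and lists were chosen with earlier results of these data known. Genes were named by a fixed rule, with the exceptions stated: the 5 members, every ligand or receptor past the filter, up to 4 genes per direction with the smallest adjusted p in each other list, RELA, NFKB1, NFKBIA, JUN, CEBPB and ZFP36, the 3 genes nearest to CXCL8 and to CXCL1, PPARGC1A and the top marker by level for each other cell type. Alternatives were pseudocounts, filters, quantile scaling, a replicate block and leaving out each library.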

Additional observations from a re-analysis of the deposited data

How the results depend on the processing

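With a pseudocount of 0.1 in place of 1 the log2 difference was 2.50 for CXCL8, 2.04 for CXCL1, 0.88 for CXCL3 and 0.12 for CXCL2, and with 0.5 it was 2.33 for CXCL8 and 0.56 for CXCL3. With a filter of a mean of 5 FPKM, under which fewer genes were tested, 1607 genes were lower in place of 2707, and 7 pathway genes in place of 11. Leaving out 1 library at a time gave 2470 to 2896 genes higher and 2176 to 2513 lower, and 25 to 28 pathway genes higher and 9 to 12 lower. With the replicate block 3253 genes were higher and 2826 lower, and 31 and 11 pathway genes. Same-numbered libraries correlated at 0.08, 0.26 and -0.06 in their deviations from the group means, and siNC library 1 correlated best with siPGC1a library 3 (0.25), so the numbers were not taken as pairs. Of the 30 named pathway genes, 26 kept their call in every setting run for them, the filter of 5 FPKM leaving 8 of the 30 out. CCL28 passed without siPGC1a replicate 3 (limma adjusted p = 0.0494), and BCL3, CCR10 and MAPK14 lost theirs as given above. Per mRNA length, an alternative chosen after seeing the data, the mean ratio of CXCL8 to CXCL1 was 0.876 in siNC and 1.22 in siPGC1a, in place of 0.787 and 1.09. Depth limits CXCL2, CCL2 and CXCL3, with 1, 80 and 221 reads over the 6 libraries.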
